A study of Mus musculus with 24 samples.

Results

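Genes that are transcribed when cells copy their DNA and divide were followed through the left brain hemisphere of mice given repeated systemic endotoxin. The set is a fixed list of 35 named cell cycle and proliferation genes, taken by symbol. It was chosen with earlier results of these data known, and all 35 were found among the 55421 gene identifiers counted. The 24 libraries came from 4 groups of 6 animals: Nox2 knockout mice given lipopolysaccharide (LPS), Nox2 knockout mice given phosphate-buffered saline (PBS), wild type mice given LPS and wild type mice given PBS. All carried the strain label C57BL/6J and were 3 months old, and each received 100 µl into the peritoneum on each of 4 days, with LPS at 1 µg per g body weight per day in the LPS groups. LPS, or endotoxin, comes from the cell envelope of gram-negative bacteria. Cybb encodes Nox2 (gp91phox), the enzyme with which phagocytes make superoxide, and the study concerned its part in neurodegeneration after repeated LPS. The sources used here do not give the knockout allele or say how the wild type mice relate to the knockout line. The assay counted tags near the 3′ end of polyadenylated RNA from the homogenised hemisphere, so dividing cells of every kind in this tissue contributed to 1 value per gene.

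The cell cycle is driven by cyclins, which activate cyclin-dependent kinases in turn. D-type cyclins act in G1, the genes of replication and nucleotide supply serve S phase, and Cdk1 with its B-type cyclins drives entry into mitosis. Polo-like and Aurora kinases, kinesins and kinetochore proteins then build the spindle, and the anaphase-promoting complex (APC/C) ends mitosis by marking cyclins and other proteins for destruction. Neurons of the adult brain do not divide, while oligodendrocyte precursors, neural progenitors, microglia and endothelial cells can.

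Many mitotic genes are known to be switched through a promoter element called the cell cycle genes homology region (CHR), read by the MuvB core of the DREAM complex, together with CCAAT boxes bound by NF-Y, while many S phase genes carry E2F motifs. Promoter windows of 300 bases, from 250 before the start site to 50 after it, were taken from RefSeq for build GRCm38.p6, and 30 of the 35 genes had one. The sequences below are those of the genes whose level rose with LPS in both genotypes, Cdk1, Top2a and Birc5, and of Mcm3, the replication gene with the largest rise in wild type mice. They are written 5′ to 3′ on the gene's strand, and capitals mark matches to the motifs searched on both strands. The windows lie at chr10:69352863-69353162 on the minus strand for Cdk1, chr11:99024140-99024439 on the minus strand for Top2a, chr11:117848987-117849286 on the plus strand for Birc5 and chr1:20820263-20820562 on the minus strand for Mcm3.
Cdk1: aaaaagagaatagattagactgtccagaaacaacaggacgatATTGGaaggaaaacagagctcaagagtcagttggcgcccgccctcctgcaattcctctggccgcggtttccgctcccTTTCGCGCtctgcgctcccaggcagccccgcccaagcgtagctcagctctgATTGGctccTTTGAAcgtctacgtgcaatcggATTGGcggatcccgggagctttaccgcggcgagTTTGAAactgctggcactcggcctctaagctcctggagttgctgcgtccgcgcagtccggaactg
Top2a: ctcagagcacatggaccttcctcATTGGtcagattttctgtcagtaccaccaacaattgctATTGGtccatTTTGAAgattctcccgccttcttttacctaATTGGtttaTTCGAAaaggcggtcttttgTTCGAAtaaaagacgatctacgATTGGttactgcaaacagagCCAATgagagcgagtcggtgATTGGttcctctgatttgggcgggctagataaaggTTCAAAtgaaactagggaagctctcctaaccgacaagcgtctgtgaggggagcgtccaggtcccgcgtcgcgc
Birc5: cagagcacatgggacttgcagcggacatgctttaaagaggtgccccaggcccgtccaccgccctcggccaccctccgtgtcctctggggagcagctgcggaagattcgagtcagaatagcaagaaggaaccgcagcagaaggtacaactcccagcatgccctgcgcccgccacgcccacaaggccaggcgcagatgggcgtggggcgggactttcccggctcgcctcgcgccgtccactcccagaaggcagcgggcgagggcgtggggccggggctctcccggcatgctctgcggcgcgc
Mcm3: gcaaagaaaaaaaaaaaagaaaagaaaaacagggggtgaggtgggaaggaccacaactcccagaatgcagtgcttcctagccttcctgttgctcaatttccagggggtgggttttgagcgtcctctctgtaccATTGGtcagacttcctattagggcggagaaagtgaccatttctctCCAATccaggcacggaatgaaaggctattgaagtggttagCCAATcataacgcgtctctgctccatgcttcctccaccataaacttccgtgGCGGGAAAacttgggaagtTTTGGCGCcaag

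The letters searched were TTTGAA and TTCGAA for the CHR, CCAAT for the CCAAT box, and TTTCCCGC, TTTCGCGC, TTTGCCGC and TTTGGCGC for E2F, with overlapping matches allowed. With the start site at 0, the Cdk1 window held CHR letters at -71 and -15, CCAAT letters at -208, -80 and -48 and an E2F match at -131. The Top2a window held 4 CHR and 6 CCAAT matches, and the Mcm3 window held 3 CCAAT and 2 E2F matches and no CHR match. The Birc5 window held none of these letters. Members were counted by gene, with a match in any window of that gene, while the comparison counts single windows. CHR letters were found in 18 of the 30 genes, against 19.2% of all 32851 RefSeq promoter windows, and CCAAT letters in 26 of 30, against 37.4%. E2F letters were found in 4 of 30, Cdk1, Mcm3, Mcm5 and Mcm6, against 2.26% of all windows. The combination of a CHR with at least 2 CCAAT boxes occurred in 10 of 30, against 2.31% of all windows. A match is a description of the letters and not a measured binding site.

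**Figure D1:**
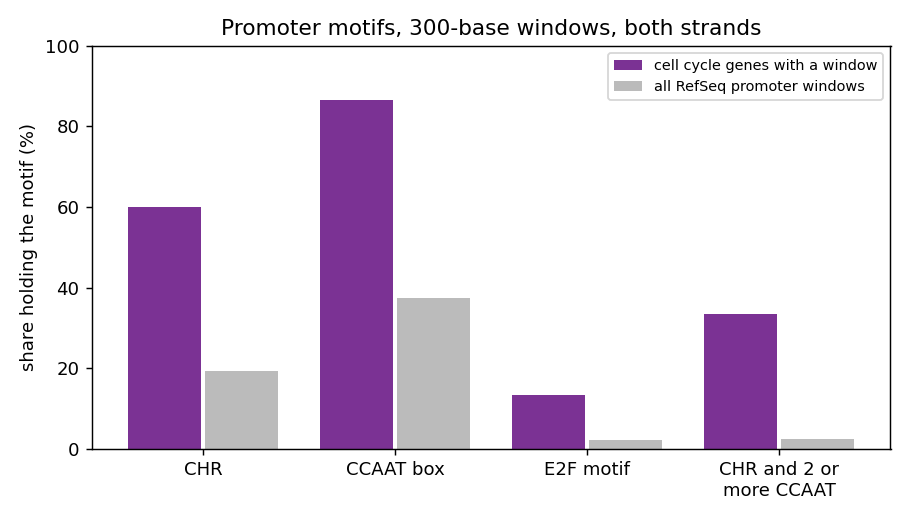
Share (y axis, percent) that holds each motif (x axis), of the 30 cell cycle genes with a RefSeq window (purple) and of all 32851 windows (grey). CHR letters occurred in 18 of the 30 cell cycle genes, CCAAT letters in 26 and E2F letters in 4, and each share lies above that of all windows.

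Libraries held 2340184 to 5256169 counts, and most of the 35 genes were scarce at this depth. Levels are given in CPM, a gene's count divided by its library's total and scaled to 1000000 counts, and intervals on counts cover counting error only. Cybb had 66.7 to 77.8 CPM in knockout LPS libraries, 62.2 to 75.2 CPM in knockout PBS libraries, 15.6 to 33.8 CPM in wild type LPS libraries and 0.85 to 2.47 CPM in wild type PBS libraries. Tags at the 3′ end of the transcript do not show whether the oxidase was lost, so they do not check the labels, and the genotypes named here are those of the labels. Wild type LPS replicates 1 and 2 stood apart from replicates 3 to 6: the chi-square per degree of freedom over genes was 2.88 to 4.74 for the 8 pairs across this divide, against 1.72 to 3.10 among replicates 3 to 6. Pairs of the other groups had 1.48 to 2.33 in knockout LPS, 1.56 to 3.52 in knockout PBS and 1.41 to 2.55 in wild type PBS, so the knockout PBS range reached into that of the divide. Glia markers summed to 3272 to 4564 CPM in a library.

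Replicate 1 of the knockout LPS group stood apart in the cell cycle genes themselves. It was the highest library of its group in 22 of the 35 genes, a share that was not set against all genes. Without Ccnd1, the list summed to 189.9 CPM in this library, against 109.0 to 135.6 CPM in the other 5 of its group. Its mitotic kinase, cyclin and APC/C genes summed to 40.4 CPM, against 15.0 to 23.8 CPM in the others. Its microglia markers (775.9 CPM, others 664.3 to 904.8), endothelial markers (533.5 CPM, others 496.3 to 560.8), monocyte markers (140.7 CPM, others 115.6 to 172.5) and neuroblast markers (701.5 CPM, others 657.2 to 722.5) lay within the range of the others. Its oligodendrocyte precursor markers, at 432.7 CPM, lay just under the others' range of 437.0 to 476.0 CPM. Its neuron markers, at 5270.9 CPM, also lay just under the others (5284.9 to 5581.2 CPM). Just above the others lay its p53 target genes (501.3 CPM, others 468.8 to 495.4) and its mitosis genes outside the 35 (983.9 CPM, others 905.7 to 976.8). Calls and summaries that this library moves are given with and without it, and likewise for wild type LPS replicates 1 and 2.

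A few cell cycle genes were called higher after LPS in both genotypes, with the largest called changes for the mitotic kinase Cdk1 and the topoisomerase Top2a. Of the 35 genes, 22 passed the filter on low counts, which asks for at least 2.6 CPM in at least 6 libraries. Of these 22, 11 reached 2.6 CPM in fewer than 6 PBS libraries and so passed only with the help of LPS libraries, and 2 of them, Cdk1 and Hmgb2, reached it in LPS libraries alone. The 11 include 5 of the 8 genes called in any comparison, so the counts of calls below depend in part on the filter. In knockout mice 3 of the 22 tested genes were called higher with LPS and 0 lower, where 7.05% of all 14380 genes tested were called higher and 3.82% lower. Without replicate 1 of the knockout LPS group, 2 of 22 were called higher there, Cdk1 and Top2a, where 6.39% of 14473 genes tested were. For so few genes, that is near the share of all genes. Wild type mice had 8 of 22 called higher and 0 lower, where 10.9% of all genes tested were called higher and 7.12% lower. At an unadjusted p under 0.05 in edgeR, 0 members in knockout mice and 1 in wild type mice, Ccnb1, were lower, and DESeq2 called 0 lower in both genotypes. A call is an adjusted p under 0.05 from the quasi-likelihood test of edgeR with Benjamini-Hochberg adjustment over all genes tested. The median log2 fold change of the 22 was 0.27 in knockout mice and 0.49 in wild type mice, against -0.00 over all tested genes in knockout mice and -0.01 in wild type mice. With no filter, the medians over all 35 genes were 0.53 in knockout mice and 0.87 in wild type mice, beside medians of 0 over 32360 genes. The median in knockout mice was 0.17 over the 22, and 0.34 over the 35 with no filter, when replicate 1 of the knockout LPS group was left out. The fold change was positive in both genotypes for 17 of the 22 tested genes and for 28 of the 35 without a filter, and without that library for 14 of 22 and 24 of 35.

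**Figure D2:**
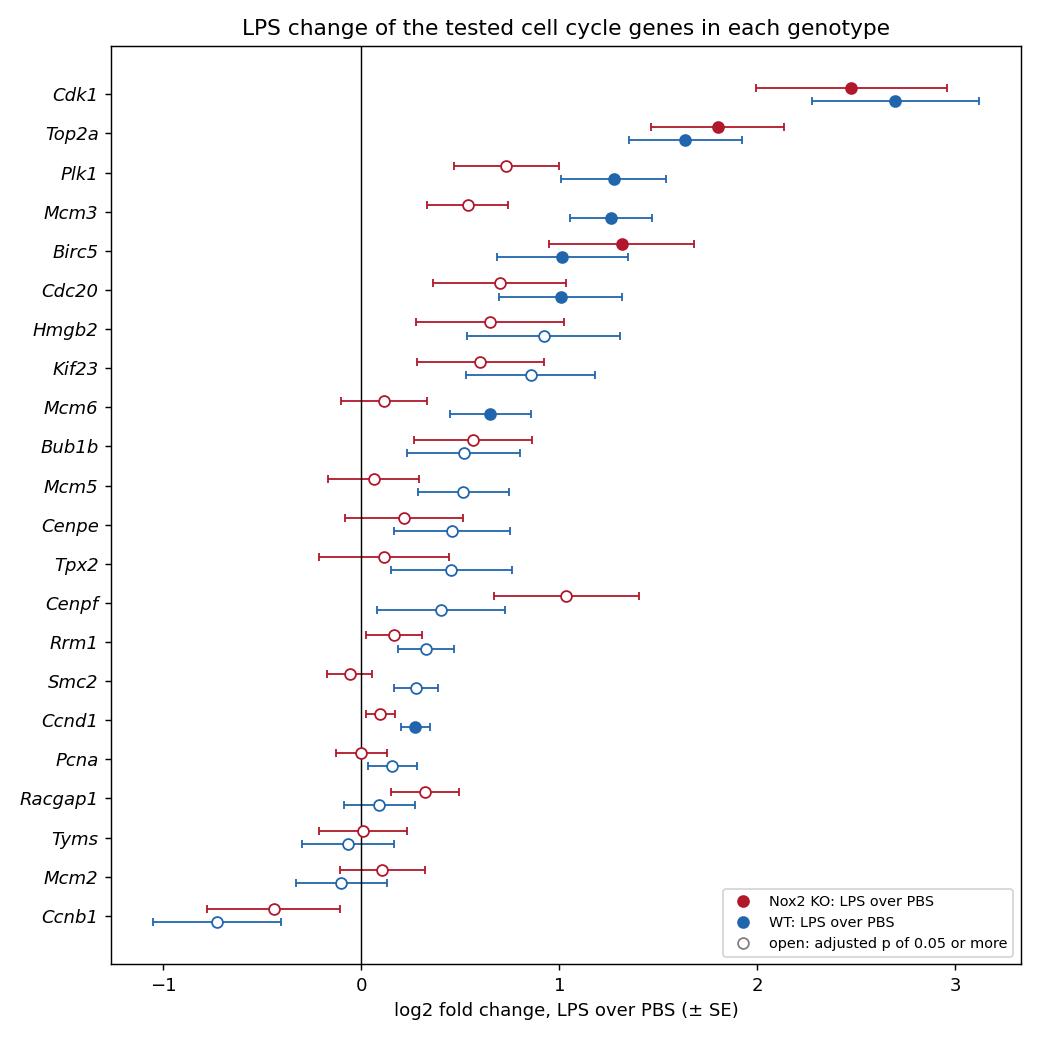
Log2 fold change of LPS over PBS with its standard error (x axis) for the 22 tested cell cycle genes (y axis) in Nox2 knockout mice (red) and wild type mice (blue). Filled points passed an adjusted p of 0.05, which 3 genes did in knockout mice and 8 in wild type mice, and Cdk1 and Top2a lie farthest to the right in both genotypes.

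Cdk1, the kinase that drives entry into mitosis (chr10:69335146-69352938), changed most. Its level was lowest at 1.54, median 2.03 and highest 6.93 CPM in knockout LPS libraries, against 0, 0.44 and 1.21 CPM in knockout PBS libraries. It was lowest at 1.83, median 4.40 and highest 6.19 CPM in wild type LPS libraries, against 0, 0.70 and 1.13 CPM in wild type PBS libraries. In both genotypes every LPS library lay above every PBS library, and Cdk1 was the only member for which this held in knockout mice. The 6 libraries of a group held 70 counts in knockout LPS, 12 in knockout PBS, 99 in wild type LPS and 16 in wild type PBS. The log2 fold change was 2.47 ± 0.48 (SE, n = 6 per group; edgeR adjusted p = 0.00018) in knockout mice and 2.697 ± 0.42 (edgeR adjusted p = 2.96e-06) in wild type mice. Without replicate 1 of the knockout LPS group it was 1.97 ± 0.48 in knockout mice (edgeR adjusted p = 0.0036), and without wild type LPS replicates 1 and 2 it was 2.85 ± 0.45 in wild type mice (edgeR adjusted p = 2.48e-06). Its promoter is the only one of the 4 printed that holds all 3 motifs.

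Birc5, grouped here with the mitotic kinases, cyclins and APC/C genes, also rose in both genotypes. It encodes survivin, a subunit of the chromosomal passenger complex that corrects spindle attachment (chr11:117849251-117855743). Its lowest, median and highest levels were 1.16, 2.91 and 7.37 CPM in knockout LPS libraries, against 0.79, 1.27 and 2.16 CPM in knockout PBS libraries. They were 2.44, 4.01 and 5.41 CPM in wild type LPS libraries, against 1.27, 1.89 and 2.99 CPM in wild type PBS libraries. The groups overlapped in both genotypes, with 3 of 6 knockout and 4 of 6 wild type LPS libraries above the highest PBS library. LPS over PBS gave a log2 fold change of 1.31 ± 0.37 (edgeR adjusted p = 0.011) in knockout mice and 1.02 ± 0.33 (edgeR adjusted p = 0.026) in wild type mice. Neither call held in full: without replicate 1 of the knockout LPS group the change in knockout mice was 0.90 ± 0.37 (edgeR adjusted p = 0.137), and without wild type LPS replicates 1 and 2 the change in wild type mice was 0.91 ± 0.37 (edgeR adjusted p = 0.0796).

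Plk1, the polo-like kinase of spindle assembly and mitotic entry (chr7:122159439-122169873), was called in wild type mice. Its lowest, median and highest levels were 2.29, 4.64 and 6.26 CPM in knockout LPS libraries, against 1.08, 2.68 and 4.10 CPM in knockout PBS libraries. They were 2.74, 5.48 and 7.48 CPM in wild type LPS libraries, against 1.71, 2.00 and 2.83 CPM in wild type PBS libraries. Of the LPS libraries, 4 of 6 in knockout mice and 5 of 6 in wild type mice lay above the highest PBS library. Plk1 had a log2 fold change of 0.73 ± 0.27 in knockout mice (edgeR adjusted p = 0.0704) and 1.27 ± 0.26 in wild type mice (edgeR adjusted p = 0.00029), and the wild type value was 1.30 ± 0.29 without replicates 1 and 2 (edgeR adjusted p = 0.00073). The change in knockout mice was 0.58 ± 0.28 (edgeR adjusted p = 0.238) without replicate 1 of its LPS group, and it passed the threshold when replicate 4 of the knockout LPS group was left out (0.87, edgeR adjusted p = 0.0257) or replicate 2 of the knockout PBS group (0.91, edgeR adjusted p = 0.029).

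Cdc20, the activator of the APC/C at the start of anaphase (chr4:118432901-118437352), was called in wild type mice as well. Its lowest, median and highest levels were 0.77, 2.76 and 4.91 CPM in knockout LPS libraries, against 0.90, 1.264 and 3.41 CPM in knockout PBS libraries. They were 2.74, 3.38 and 5.10 CPM in wild type LPS libraries, against 1.04, 1.80 and 2.47 CPM in wild type PBS libraries. Wild type groups did not overlap, and knockout groups overlapped widely. The log2 fold change was 0.70 ± 0.33 in knockout mice (edgeR adjusted p = 0.211) and 1.01 ± 0.31 in wild type mice (edgeR adjusted p = 0.018). Without replicate 1 of the knockout LPS group the knockout value was 0.42 ± 0.35 (edgeR adjusted p = 0.585), and without wild type LPS replicates 1 and 2 the wild type value was 0.77 ± 0.35 (edgeR adjusted p = 0.127). The 3′ end of Cdc20 lies within 500 bases of the opposite-strand gene Elovl1, and without a stated strand setting reads of the pair cannot be told apart.

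Ccnb1, the cyclin B1 partner of Cdk1, did not share the direction of its kinase. It had 0.94, 1.63 and 4.37 CPM as lowest, median and highest level in knockout LPS libraries, against 1.71, 2.57 and 4.57 CPM in knockout PBS libraries. It had 1.07, 2.06 and 3.09 CPM in wild type LPS libraries, against 2.47, 2.74 and 5.39 CPM in wild type PBS libraries. The medians lay below those after PBS, and the groups overlapped. The log2 fold change was -0.44 ± 0.34 in knockout mice (edgeR adjusted p = 0.501) and -0.73 ± 0.32 in wild type mice (edgeR adjusted p = 0.118), so neither passed the test. Reads were not found on the annotated copy Ccnb1-ps, which had 0 counts in all libraries. Bub1b, a kinase-like protein of the spindle checkpoint, had a log2 fold change of 0.57 ± 0.30 in knockout mice and 0.52 ± 0.28 in wild type mice and was not called in either. As a group, the 11 genes under kinases, cyclins and APC/C, Birc5 among them, summed to 15.0 to 40.4 CPM in knockout LPS libraries and 12.7 to 15.7 CPM in knockout PBS libraries. In wild type mice they summed to 21.3 to 39.5 CPM in LPS libraries and 12.1 to 18.7 CPM in PBS libraries, with no overlap.

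Top2a, the topoisomerase that untangles replicated chromosomes (chr11:98992943-99024189), also rose in both genotypes. Its lowest, median and highest levels were 2.697, 4.64 and 12.96 CPM in knockout LPS libraries, against 1.35, 1.63 and 2.91 CPM in knockout PBS libraries. They were 4.83, 8.46 and 13.2 CPM in wild type LPS libraries, against 1.27, 2.78 and 5.39 CPM in wild type PBS libraries. In each genotype 1 LPS library fell below the highest PBS library, so the groups overlapped by a single library. Top2a had a log2 fold change of 1.80 ± 0.34 in knockout mice (edgeR adjusted p = 9.63e-05) and 1.64 ± 0.29 in wild type mice (edgeR adjusted p = 2.26e-05). It was 1.42 ± 0.33 in knockout mice without replicate 1 of the LPS group (edgeR adjusted p = 0.0018) and 1.81 ± 0.29 in wild type mice without replicates 1 and 2 (edgeR adjusted p = 5.25e-06). Of the other chromosome genes, Smc2, a condensin subunit, had log2 fold changes of -0.06 ± 0.11 in knockout mice and 0.28 ± 0.11 in wild type mice, and Hmgb2, a DNA-bending protein, had 0.65 ± 0.38 and 0.92 ± 0.39. None of these 4 changes was called, and the knockout value of Hmgb2 was 0.40 ± 0.40 without replicate 1 of the LPS group.

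**Figure D3:**
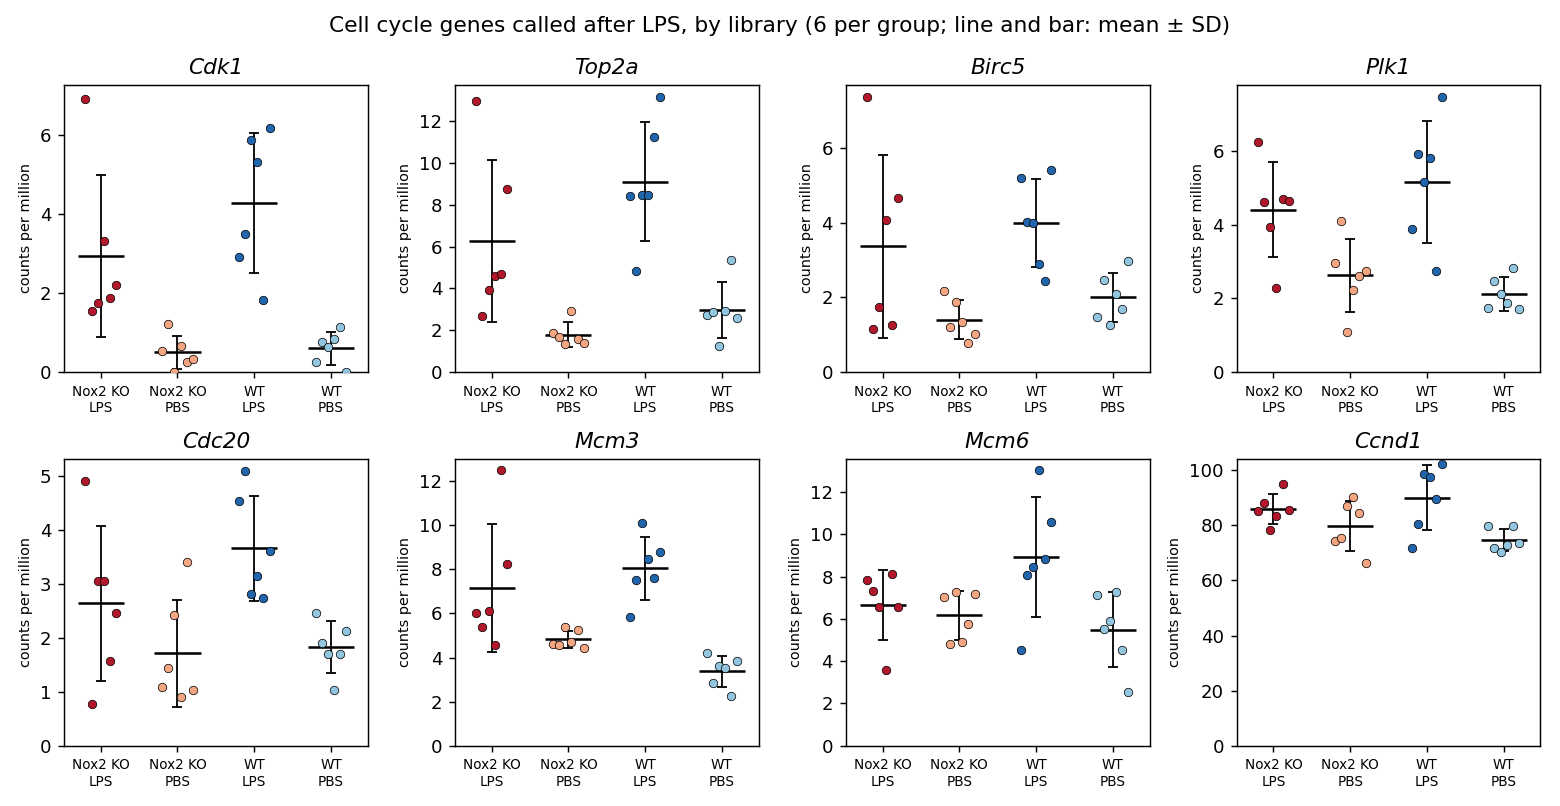
Level in CPM (y axis, linear, from 0) of the 8 cell cycle genes called in at least 1 genotype, in the 4 groups of 6 libraries (x axis). Each point is 1 library, the line is the group mean and the bar 1 SD, and replicate 1 of the knockout LPS group is the highest red point for Cdk1 at 6.93 and for Top2a at 12.96 CPM.

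Among the 9 genes of DNA replication and nucleotide supply, 7 were tested, and the minichromosome maintenance (MCM) genes, which encode the replicative helicase, did not change alike. Mcm3 (chr1:20802968-20820312) had 4.59, 6.07 and 12.5 CPM as lowest, median and highest level in knockout LPS libraries, against 4.45, 4.65 and 5.38 CPM in knockout PBS libraries. It had 5.84, 8.04 and 10.1 CPM in wild type LPS libraries, against 2.27, 3.57 and 4.19 CPM in wild type PBS libraries. Wild type groups were fully separate, knockout groups overlapped, and every knockout PBS library also lay above every wild type PBS library. The log2 fold change was 0.54 ± 0.20 in knockout mice (edgeR adjusted p = 0.0877) and 1.262 ± 0.21 in wild type mice (edgeR adjusted p = 7.93e-06). Without wild type LPS replicates 1 and 2 the wild type value was 1.37 ± 0.22 (edgeR adjusted p = 6.32e-06). The change in knockout mice was 0.64 without replicate 4 of the knockout LPS group, where it was called (edgeR adjusted p = 0.0378), 0.59 ± 0.21 without replicate 1 (edgeR adjusted p = 0.0833), and 0.33 without replicate 5 (edgeR adjusted p = 0.356).

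Mcm6 (chr1:128331590-128359664) had 3.57, 6.95 and 8.13 CPM as lowest, median and highest level in knockout LPS libraries, against 4.82, 6.40 and 7.27 CPM in knockout PBS libraries. It had 4.54, 8.65 and 13.1 CPM in wild type LPS libraries, against 2.56, 5.72 and 7.30 CPM in wild type PBS libraries. Of the wild type LPS libraries, 5 of 6 lay above the highest PBS library, while knockout libraries of both treatments covered nearly the same range. Mcm6 had a log2 fold change of 0.11 ± 0.22 in knockout mice (edgeR adjusted p = 0.84) and 0.65 ± 0.20 in wild type mice (edgeR adjusted p = 0.019). The wild type call was lost without replicate 4 of the wild type LPS group (0.51, edgeR adjusted p = 0.101) or without replicate 6 (0.60, edgeR adjusted p = 0.0518), and held without replicates 1 and 2 (0.83 ± 0.21, edgeR adjusted p = 0.0024).

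Mcm2 and Pcna, often used as markers of proliferating cells, were not called. Mcm2 (chr6:88883474-88898780) had 3.28, 5.02 and 6.94 CPM as lowest, median and highest level in knockout LPS libraries, against 3.08, 4.996 and 6.03 CPM in knockout PBS libraries, and 1.83, 4.29 and 5.19 CPM in wild type LPS libraries, against 3.21, 4.44 and 5.10 CPM in wild type PBS libraries. Its log2 fold change was 0.11 ± 0.22 in knockout mice and -0.10 ± 0.23 in wild type mice. Pcna (chr2:132249162-132253314), the sliding clamp of DNA polymerase, had 10.7, 13.6 and 14.5 CPM in knockout LPS libraries, against 10.97, 11.8 and 17.03 CPM in knockout PBS libraries, and 13.7, 15.4 and 19.2 CPM in wild type LPS libraries, against 11.6, 13.5 and 16.5 CPM in wild type PBS libraries. Its log2 fold change was -0.00 ± 0.13 in knockout mice and 0.16 ± 0.12 in wild type mice. The libraries of both treatments overlapped for both genes in both genotypes. Mcm5, with 0.06 ± 0.23 in knockout mice and 0.52 ± 0.23 in wild type mice, Rrm1, a subunit of ribonucleotide reductase, with 0.16 ± 0.14 and 0.33 ± 0.14, and Tyms, thymidylate synthase, with 0.01 ± 0.22 and -0.07 ± 0.23, were not called either. Without wild type LPS replicates 1 and 2, Mcm5 was called in wild type mice at 0.69 ± 0.24 (edgeR adjusted p = 0.0315). Without replicate 1 of the knockout LPS group, the uncalled values in knockout mice were -0.01 ± 0.23 for Mcm2, -0.06 ± 0.24 for Mcm5 and 0.05 ± 0.23 for Mcm6.

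Ccnd1 (chr7:144929931-144939925) encodes cyclin D1, the G1 cyclin, and was by far the most abundant member by tag count. It had 78.4, 85.4 and 95.02 CPM as lowest, median and highest level in knockout LPS libraries, against 66.4, 79.9 and 90.2 CPM in knockout PBS libraries. It had 71.7, 93.5 and 102.4 CPM in wild type LPS libraries, against 70.5, 73.2 and 79.9 CPM in wild type PBS libraries. Above the highest PBS library lay 1 of 6 LPS libraries in knockout mice and 5 of 6 in wild type mice. The log2 fold change was 0.09 ± 0.07 in knockout mice (edgeR adjusted p = 0.514) and 0.27 ± 0.07 in wild type mice (edgeR adjusted p = 0.0055), and without replicates 1 and 2 the wild type value was 0.37 ± 0.07 (edgeR adjusted p = 8.85e-05). The change in wild type mice was the smallest of the 8 called, with 2035 counts over the wild type LPS libraries and 1838 over the wild type PBS libraries. The opposite-strand gene LTO1 lies within 500 bases of the 3′ end of Ccnd1.

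The spindle, kinesin, kinetochore and cytokinesis genes gave no call among the 5 of 9 that were tested, in either genotype, with all libraries in the fit. Of all genes tested, 7.05% were called higher in knockout mice and 10.9% in wild type mice. For so few genes, no call is near those shares. Kif23, a kinesin of the central spindle, had a log2 fold change of 0.60 ± 0.32 in knockout mice (edgeR adjusted p = 0.277) and 0.86 ± 0.33 in wild type mice (edgeR adjusted p = 0.0612). Without wild type LPS replicates 1 and 2 the wild type change of Kif23 was 1.04 ± 0.35 and was called (edgeR adjusted p = 0.0288). Cenpf, a kinetochore-associated protein, had 1.03 ± 0.37 in knockout mice (edgeR adjusted p = 0.0615) and 0.40 ± 0.32 in wild type mice. Racgap1, which acts with Kif23 in cytokinesis, had 0.32 ± 0.17 and 0.09 ± 0.18. Tpx2, a spindle assembly factor that activates Aurora A, had 0.11 ± 0.33 and 0.45 ± 0.31, and Cenpe, a kinetochore kinesin, had 0.22 ± 0.30 and 0.46 ± 0.30. With replicate 1 of the knockout LPS group left out, the values in knockout mice were 0.36 ± 0.34 for Kif23, 0.98 ± 0.39 for Cenpf and 0.23 ± 0.18 for Racgap1, and those of Tpx2, at -0.19 ± 0.35, and Cenpe, at -0.00 ± 0.33, were no longer positive. These 5 genes had 27 to 237 counts over the 6 libraries of a group.

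The 13 remaining genes were too scarce for the filter: Ccna2, Rrm2, Tk1, Ccnb2, Ube2c, Aurka, Aurkb, Bub1, Kif11, Kif20a, Nusap1, Prc1 and Mki67. Together they summed to 7.71 to 29.9 CPM in knockout LPS libraries, against 7.53 to 11.1 CPM in knockout PBS libraries, and to 15.5 to 23.9 CPM in wild type LPS libraries, against 4.70 to 9.62 CPM in wild type PBS libraries. Wild type libraries of both treatments did not overlap, while 1 of the 6 knockout LPS libraries lay within the range of the knockout PBS libraries. Without replicate 1 the other 5 knockout LPS libraries ran from 7.71 to 14.4 CPM.

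Mki67 (chr7:135689784-135716361), the gene of the proliferation antigen Ki-67, had raw counts of 1, 3.5 and 16 as lowest, median and highest in knockout LPS libraries, against 0, 1 and 1 in knockout PBS libraries. It had 2, 7.5 and 8 counts in wild type LPS libraries, against 0, 1.5 and 4 in wild type PBS libraries. In each genotype 5 of 6 LPS libraries lay above the highest PBS library by CPM. A fit without the filter gave a log2 fold change of 2.73 ± 0.61 in knockout mice (edgeR adjusted p = 0.00031) and 1.84 ± 0.52 in wild type mice (edgeR adjusted p = 0.0075), and 2.27 ± 0.67 in knockout mice without replicate 1 (edgeR adjusted p = 0.0197). The summed counts gave an LPS over PBS ratio of 7.72 in knockout mice, with an exact 95% counting interval of 3.03 to 25.1, and of 3.82 in wild type mice, with an interval of 1.91 to 8.28. Replicate 1 held 16 of the 38 Mki67 counts of the knockout LPS group, and the ratio was not taken without it.

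Without the filter, 6 of the 35 genes were called higher in knockout mice, where 3.54% of 32360 genes were called higher, and 13 of 35 in wild type mice, where 5.01% were. DESeq2 called 6 higher in knockout mice, where it called 5.12% of all genes higher, and 11 in wild type mice, where it called 7.96%. Beside the genes above and Mki67, both genotypes then shared Ube2c, the ubiquitin-conjugating enzyme of the APC/C, at 2.43 ± 0.68 in knockout mice and 2.46 ± 0.57 in wild type mice, and Nusap1, a spindle microtubule protein, at 2.30 ± 0.54 and 2.20 ± 0.53. The counts of Ube2c over a group were 25 in knockout LPS, 4 in knockout PBS, 39 in wild type LPS and 7 in wild type PBS. Those of Nusap1 were 43 in knockout LPS, 8 in knockout PBS, 41 in wild type LPS and 9 in wild type PBS. Without replicate 1 of the knockout LPS group, Ube2c and Nusap1 were no longer called in knockout mice, and 3 members were, where 3.13% of all genes were called higher: Cdk1, Top2a and Mki67. Tk1, thymidine kinase of the salvage pathway, had 17 counts in knockout LPS, 4 in knockout PBS, 27 in wild type LPS and 4 in wild type PBS, and was called in wild type mice at 2.65 ± 0.68. Aurkb, the kinase of the chromosomal passenger complex, had 5 counts in knockout LPS, 7 in knockout PBS, 22 in wild type LPS and 5 in wild type PBS, and was called in wild type mice at 2.10 ± 0.68 (edgeR adjusted p = 0.028). DESeq2 did not call Aurkb. It also lost its call without wild type LPS replicates 1 and 2, where 11 of the 35 genes were called higher in wild type mice, beside 5.72% of all genes. The 3′ ends of Ube2c and Tk1 also lie within 500 bases of an opposite-strand gene, Tnnc2 and Gm20708. The same holds for Ccna2 with Exosc9, Kif20a with Cdc23 and Prc1 with Rccd1, which are also under the filter.

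**Figure D4:**
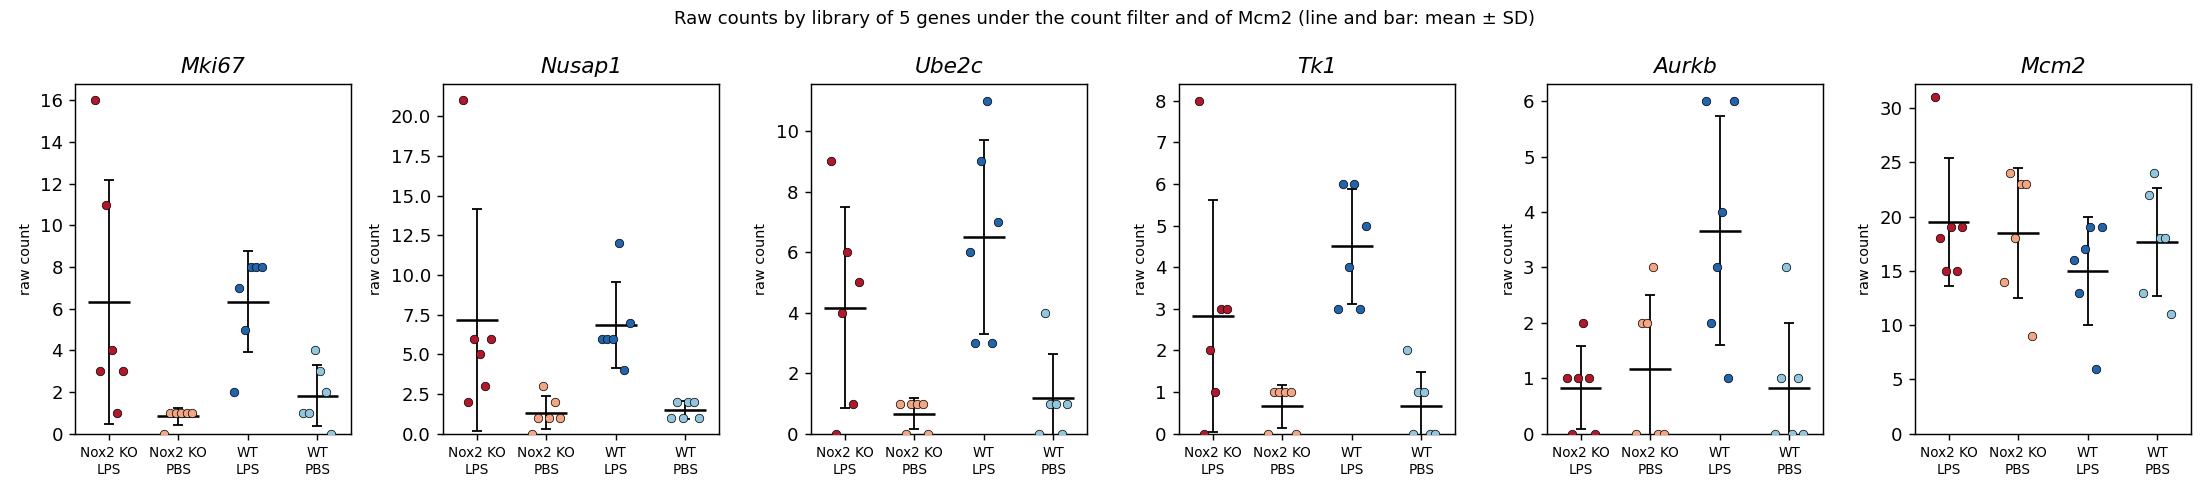
Raw counts per library (y axis, linear, from 0) of 5 genes under the count filter, Mki67, Nusap1, Ube2c, Tk1 and Aurkb, and of Mcm2, in the 4 groups of 6 libraries (x axis); the line is the group mean and the bar 1 SD. The PBS libraries hold 0 to 4 counts of the first 5 genes, while Mcm2 holds 6 to 31 counts with all groups overlapping.

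No member was called between the genotypes. After PBS, 0 of 22 tested members were called by edgeR in knockout against wild type mice, where 0.132% of all genes were, 1 had an unadjusted p under 0.05, and DESeq2 also called 0, with 0.108% of all genes called. That gene was Mcm3, with a log2 difference of 0.51 ± 0.23 (edgeR adjusted p = 0.511), and it was the only 1 of 35 whose knockout and wild type PBS libraries did not overlap. After LPS, 0 of 22 were called by edgeR, where 1.05% of all genes were, 2 had an unadjusted p under 0.05, and DESeq2 called 0, with 0.786% of all genes called. These were Mcm6, at -0.46 ± 0.20 (edgeR adjusted p = 0.354), and Racgap1, at 0.35 ± 0.17 (edgeR adjusted p = 0.429). The difference in LPS response between genotypes was called for 0 of 22, where 0.00695% of all genes were called, with 2 at an unadjusted p under 0.05, and DESeq2 called 0, with 0.00618% of all genes called. These were Mcm3, at -0.73 ± 0.29 (edgeR adjusted p = 0.404), and Smc2, at -0.33 ± 0.16 (edgeR adjusted p = 0.487). The larger number of calls in wild type mice is therefore not shown to be a difference between genotypes, and these p-values do not show that the responses were alike. For Cdk1 the interaction was -0.22 ± 0.81, for Top2a 0.16 ± 0.45 and for Birc5 0.30 ± 0.50. Without replicate 1 of the knockout LPS group these were -0.71 ± 0.71, -0.21 ± 0.44 and -0.11 ± 0.50, so the sign turned for Top2a and Birc5, and none was called. Cdk1 after LPS was -1.002 ± 0.32 in knockout against wild type mice without that library (edgeR adjusted p = 0.153).

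Top2a was called between genotypes after LPS only when 1 library and the filter were both left out. Its log2 difference between knockout and wild type mice after LPS was -0.49 ± 0.25 (edgeR adjusted p = 0.467) with all libraries and -0.86 ± 0.25 (edgeR adjusted p = 0.0881) without replicate 1 of the knockout LPS group. When that library and the filter were both left out, it was -0.87 ± 0.23 (edgeR adjusted p = 0.0186), which was the only member called between genotypes in any fit run here, where 0.862% of all genes were called. Both settings were combined after the data had been seen.

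Every LPS library lay above every PBS library for 1 of the 35 members in knockout mice, Cdk1, where this held for 2.11% of the 32360 genes with a count, and for 6 in wild type mice, where it held for 3.02%: Mcm3, Tk1, Cdk1, Cdc20, Ube2c and Nusap1. Among the 22 tested members it held for 1 in knockout mice, against 4.19% of all genes tested, and for 3 in wild type mice, against 5.99%. Knockout and wild type libraries were apart, in either direction, for 1 member after PBS, where 0.253% of genes with a count and 0.431% of genes tested were, and for 0 after LPS, where 0.365% and 0.668% were. Summed over all members but Ccnd1, levels were 109.0 to 189.9 CPM in knockout LPS libraries, against 96.7 to 117.9 CPM in knockout PBS libraries, and 136.0 to 176.4 CPM in wild type LPS libraries, against 95.3 to 112.7 CPM in wild type PBS libraries. The wild type ranges were apart and the knockout ranges overlapped.

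**Figure D5:**
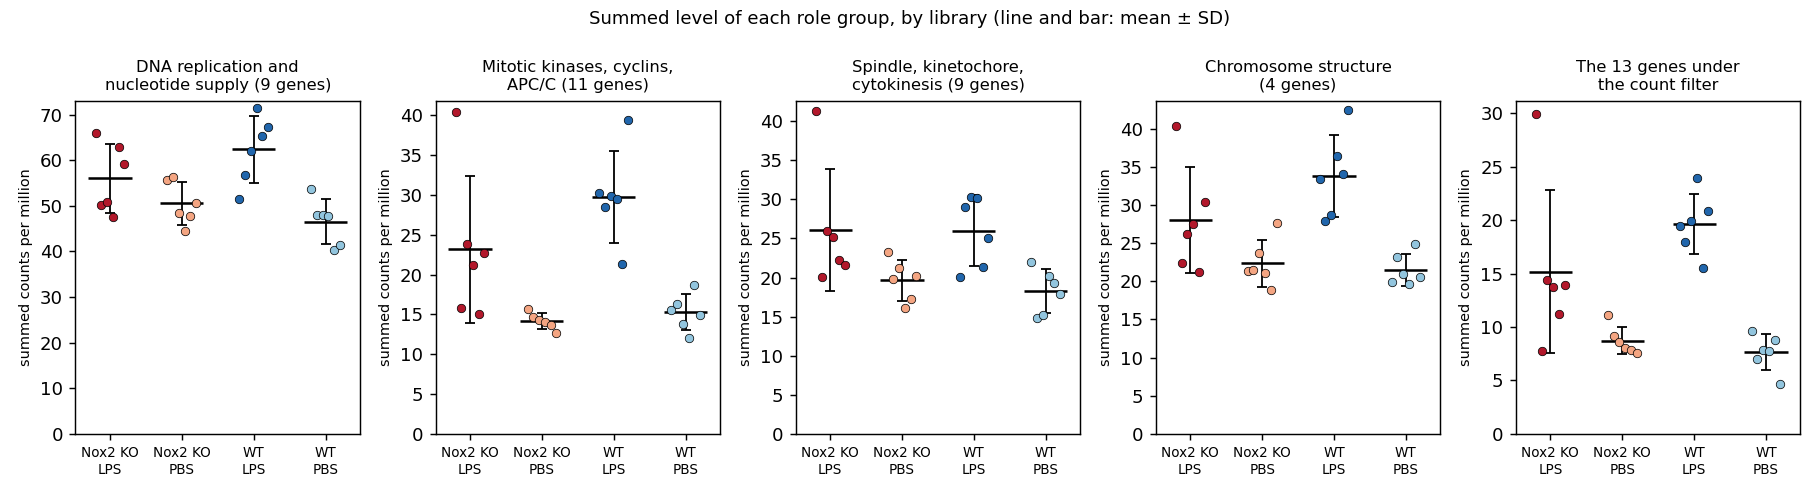
Summed CPM per library (y axis, linear, from 0) for 4 role groups and for the 13 genes under the count filter, in the 4 groups of 6 libraries (x axis); the line is the group mean and the bar 1 SD. The mitotic kinase group sums to 15.0 to 40.4 CPM in knockout LPS libraries, with replicate 1 at the top, and to 21.3 to 39.5 CPM in wild type LPS libraries.

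Outside the 35 genes, 116 further cell cycle genes were followed, of which 73 were tested. In knockout mice 5 rose and 2 fell with LPS, beside the 7.05% of all tested genes called higher and 3.82% called lower, and in wild type mice 12 rose and 3 fell, beside 10.9% and 7.12%. The share that rose in knockout mice is near that of all genes. Leaving out replicate 1 of the knockout LPS group, 5 rose and 1 fell of 75 tested in knockout mice, and without wild type LPS replicates 1 and 2, 6 rose and 4 fell in knockout mice and 15 rose and 1 fell in wild type mice. Cdk6, a partner of the D-type cyclins, rose by a log2 fold change of 1.01 ± 0.17 in knockout mice and 0.96 ± 0.16 in wild type mice, and Ccnd3, another D-type cyclin, by 0.34 ± 0.09 and 0.52 ± 0.09. With all libraries, 1 of the 9 other G1 cyclins and CDKs was called lower in knockout mice, the D-type cyclin Ccnd2. It was not called without replicate 1 of the knockout LPS group (-0.20 ± 0.07, edgeR adjusted p = 0.0685). Rbl1, the pocket protein p107, rose by 0.90 ± 0.29 and 0.89 ± 0.28, and was the only called gene among the 14 tested regulators of the E2F, pocket protein and DREAM list in either genotype with all libraries. In wild type mice Cdk2, the kinase of the G1/S transition, rose by 1.49 ± 0.32, Cks1b, a Cdk-binding subunit, by 0.95 ± 0.22, Cdca8, a chromosomal passenger subunit, by 1.02 ± 0.31, and Spc24, a kinetochore subunit, by 0.93 ± 0.26. Of 22 other replication genes tested, Lig1, DNA ligase 1 (0.48 ± 0.10), Rpa2, a single-strand binding subunit (0.41 ± 0.11), and Chaf1a, a histone chaperone of replication (0.68 ± 0.21), rose in wild type mice. In knockout mice 0 of these 22 rose and Dut, the dUTPase, fell by 0.27 on the log2 scale. Among other mitosis genes, the condensin gene Ncapd2 rose in wild type mice (0.39 ± 0.10), and Anln, a cytokinesis protein (0.47 ± 0.12), and the condensin gene Smc4 (0.41 ± 0.13) rose in knockout mice. Smc4 was not called without replicate 1 of the knockout LPS group (0.37 ± 0.14, edgeR adjusted p = 0.106). Ccnh, a subunit of the Cdk-activating kinase, fell by 0.23 on the log2 scale in wild type mice and was not called without wild type LPS replicates 1 and 2 (-0.20 ± 0.08, edgeR adjusted p = 0.0766).

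Markers of several cell types moved with LPS in the same libraries. Of 10 microglia markers, 9 rose in each genotype, and their sum was 664 to 905 CPM in knockout LPS, 296 to 331 in knockout PBS, 820 to 1081 in wild type LPS and 313 to 381 in wild type PBS libraries. Of 10 endothelial markers, 9 rose in knockout and 10 in wild type mice, with sums of 496 to 561, 254 to 318, 554 to 671 and 276 to 312 CPM in the same order of groups. Markers of blood-borne cells rose as well. LPS libraries alone can meet the filter on low counts, so the counts of tested markers that rose depend in part on it. All 8 tested of 10 monocyte and macrophage markers rose in each genotype, with sums of 116 to 173 CPM in knockout LPS, 14.8 to 24.4 in knockout PBS, 151 to 278 in wild type LPS and 10.2 to 27.3 in wild type PBS libraries, and Ccl24 had 0 counts in knockout LPS. All 5 tested of 12 granulocyte markers rose in each genotype, with sums of 91.3 to 399.2 CPM in knockout LPS, 10.5 to 42.8 in knockout PBS, 119.3 to 712.2 in wild type LPS and 10.4 to 20.7 in wild type PBS libraries, and Ctsg had 0 counts in knockout PBS. Of 12 lymphocyte markers, 2 were tested and 1, Gzma, rose in each genotype, with sums of 4.06 to 24.7 CPM in knockout LPS, 1.93 to 4.79 in knockout PBS, 4.83 to 11.4 in wild type LPS and 2.50 to 3.61 in wild type PBS libraries. Cd3g had 0 counts in knockout PBS and wild type LPS, Cd3e in both PBS groups, and Cd79a in knockout LPS and wild type PBS.

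The markers of progenitors in the brain did not rise as a list. None of 12 tested neural progenitor and neuroblast markers was called with LPS in either genotype. Among all genes tested, 7.05% were called higher in knockout mice and 10.9% in wild type mice, and for 12 genes no call is near those shares. The sums of these markers were 657 to 722 CPM in knockout LPS, 707 to 751 in knockout PBS, 657 to 784 in wild type LPS and 651 to 842 in wild type PBS libraries. Of 10 oligodendrocyte precursor markers, 1 rose and 2 fell in knockout mice and 2 rose and 2 fell in wild type mice, with sums of 433 to 476, 495 to 568, 455 to 490 and 500 to 578 CPM in that order of groups. Of 4 tested erythroid markers of 9, 1 rose and 3 fell in each genotype, with sums of 86.9 to 134.5 CPM in knockout LPS, 85.4 to 397.7 in knockout PBS, 70.7 to 125.2 in wild type LPS and 91.97 to 137.2 in wild type PBS libraries. Neuron markers moved the other way. Of 6, 1 was called lower with LPS in knockout mice and 3 in wild type mice, with sums of 5271 to 5581 CPM in knockout LPS, 5831 to 6059 in knockout PBS, 5142 to 5425 in wild type LPS and 5741 to 6073 in wild type PBS libraries, with no overlap between treatments in either genotype. The part of these cell types in the change of the cell cycle genes was not tested. In RNA of a whole hemisphere, a change in the number of dividing cells and a change in RNA per cell cannot be told apart.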

How the data were processed

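The authors deposited raw counts of 3′ tags per Ensembl gene, made from QuantSeq 3′ mRNA-Seq libraries of 100 ng total RNA, per the labels' protocols. STAR 2.7.3a, featureCounts of Subread 2.0.0 and build mm10 (GRCm38) were used, per the submitters' processing notes. The annotation release, strand setting and treatment of multi-mapping or duplicate reads are not stated in the sources used. All 24 libraries entered 1 edgeR 4.0.16 quasi-likelihood fit (R 4.3.3) with a mean per group, TMM scaling and filterByExpr at its minimum count of 10, which kept 14380 genes. Benjamini-Hochberg adjustment ran over all genes tested within each of 5 comparisons. Each standard error is the log2 fold change over the square root of its F statistic, and is rough where the change is near 0. The fit was checked on simulated counts. Alternatives were DESeq2 1.42.0, RLE scaling, no filter, a replicate block, the compared groups alone and libraries left out. Positions are from GENCODE M21.

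Members and gene lists were chosen with earlier results of these data known. The rule for named genes takes every member called in any comparison, Mki67, Ccnd1, Pcna, Mcm2, Cdk1 and Top2a, and of each other list up to 4 called genes with the smallest p in wild type LPS and up to 2 in each other comparison. Other members, and Ccnd2 of the other lists, are given by value where their role helps, chosen after their values were seen. Some genes the rule takes from the marker lists are given only as counts. Labels give 6 animals per group, so p-values measure the spread between animals. The level of 1 lymphocyte marker is not reported here.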

Additional observations from a re-analysis of the deposited data

Results flagged for a closer look

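In 44 sets of 6 libraries, the 4 groups of each of 11 named genes, a single library lay far from the other 5 in 4 cases. The cutoff used is meant to flag about 1 of 20 sets by chance. That rate was not measured for counts as low as these, so the 4 cases cannot be set against it. Replicate 1 of the knockout LPS group had 6.93 CPM of Cdk1, the mitotic kinase, with the others at 1.54 to 3.31 CPM. Replicate 4 of the knockout LPS group had 3.57 CPM of Mcm6, a helicase subunit, with the others at 6.55 to 8.13 CPM. Replicate 4 of the knockout PBS group had 2.91 CPM of Top2a, with the others at 1.35 to 1.89 CPM. Replicate 1 of the knockout PBS group had 0 CPM of Mki67, with the others at 0.22 to 0.34 CPM, which is 1 count each, so this gap is a difference of 1 tag.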

How the results depend on the processing

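Of 35 members, 3 were called for LPS in knockout mice (22 tested), 6 by DESeq2 (5.12% of 19807 genes called higher), 6 with no filter, also without wild type LPS replicates 1 and 2, and 1, Top2a, with the 2 compared groups alone, where 13 members, without Cdk1 and Birc5, passed the filter. In wild type mice 8 were called, 11 by DESeq2 (7.96% of 19180 genes called higher), 13 with no filter, also without replicate 1 of the knockout LPS group, and 7 with the compared groups alone, where Cdk1 failed the filter. Without wild type LPS replicates 1 and 2, wild type mice again had 8 calls, with Mcm5 and Kif23 in place of Cdc20 and Birc5. With no filter as well, 11 members were called in wild type mice. With the replicate block the counts were 3 in knockout mice and 8 in wild type mice, and 0 between genotypes. Samples share only a number: same-numbered deviations from the group means correlated at -0.06 to 0.08, and none passed 0.1. RLE scaling also gave 3 and 8. Leaving out 1 library at a time gave 2 to 5 calls in knockout mice, 5 of them without replicate 4 of the LPS group, and 6 to 9 in wild type mice; between genotypes and for the interaction it gave 0. With no filter and without replicate 1 of the knockout LPS group, 3 members were called in knockout mice and 1, Top2a, between genotypes after LPS; the fits that join no filter with left-out libraries were chosen after seeing the data. Birc5 in wild type mice had a DESeq2 adjusted p of 0.0549, and lost its call in 4 single-library fits, with edgeR adjusted p up to 0.0769. Cdc20 lost its wild type call without replicate 2 of the wild type LPS group (0.88, edgeR adjusted p = 0.0576) or replicate 4 of the wild type PBS group (0.87, edgeR adjusted p = 0.0634). The cause of these changes was not tested, apart from the fewer genes that a filter or a smaller fit leaves to test. No named member changed sign where it was called.

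Counts over all genes moved more. For knockout against wild type after PBS 19 genes were called, 88 with no filter, 33 with the compared groups alone, 39 with the replicate block and 36 without wild type LPS replicates 1 and 2. After LPS 151 were called, with 293, 123, 273 and 561 under the same settings. For the interaction 1 was called, with 67 with no filter, 8 with the replicate block, 249 without those replicates and 2 by DESeq2. Depth limits the result for the 13 members under the filter, with 30 to 140 counts over all 24 libraries.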

Other observations

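Of 8 genes for inhibitors of cyclin-dependent kinases 4 were tested, and none was called with LPS in either genotype. Cdkn1a, which encodes p21, was lower in knockout than in wild type mice after PBS, with 15.7, 25.8 and 33.8 CPM as lowest, median and highest level in knockout PBS libraries, against 40.4, 43.8 and 59.4 CPM in wild type PBS libraries. These groups did not overlap, and the log2 difference was -0.82 ± 0.13 (edgeR adjusted p = 0.00016). After LPS the levels were 26.9, 30.7 and 35.4 CPM in knockout libraries, against 26.0, 42.7 and 57.6 CPM in wild type libraries, with a log2 difference of -0.42 ± 0.13 (edgeR adjusted p = 0.109), and without wild type LPS replicates 1 and 2 it was -0.50 ± 0.13 and called (edgeR adjusted p = 0.0153). The difference between these 2 contrasts was 0.40 ± 0.18 and was not called (edgeR adjusted p = 0.466).

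Of 16 p53 target genes, 15 were tested. Btg2, an antiproliferative factor, rose with LPS in wild type mice by 0.62 ± 0.20 on the log2 scale (edgeR adjusted p = 0.023) and was the only gene of this list called in any of the 5 comparisons with all libraries. Without wild type LPS replicates 1 and 2 it was 0.38 ± 0.21 in wild type mice and not called (edgeR adjusted p = 0.212). Its change in knockout mice was 0.19 ± 0.19 (edgeR adjusted p = 0.637), and the interaction was -0.42 ± 0.28 (edgeR adjusted p = 0.653).

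E2f1, the activator of S phase genes, was not called in any comparison with all libraries. Without wild type LPS replicates 1 and 2, its LPS change was called in both genotypes, at -0.41 ± 0.13 in knockout mice (edgeR adjusted p = 0.0402) and 0.53 ± 0.14 in wild type mice (edgeR adjusted p = 0.0048), with an interaction of -0.94 ± 0.20 (edgeR adjusted p = 0.0077). With all libraries the interaction was -0.74 ± 0.21 (edgeR adjusted p = 0.245). The interaction was also called without these replicates for Rpa2, a single-strand DNA binding subunit (-0.68 ± 0.15, edgeR adjusted p = 0.0128), and Anln, a cytokinesis protein (0.59 ± 0.15, edgeR adjusted p = 0.0335). In that fit 1 higher and 2 lower of 75 other cell cycle genes tested were called, where 1.7% of all 14684 genes were. With all libraries 0.00695% of 14380 genes were called for the interaction. E2f1, Rpa2 and Anln were chosen after their values were seen.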
